A study of Mus musculus with 6 samples.

Results

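Polycomb group proteins keep developmental genes silent in 2 kinds of chromatin complex, and the transcripts that encode 10 of their subunits were followed here through the differentiation of MEL cells, a mouse erythroleukemia line held at an early erythroid stage. The 10 genes were chosen by name: Ezh1, Ezh2, Eed, Suz12 and Jarid2 of Polycomb repressive complex 2 (PRC2), and Rnf2, Bmi1, Cbx2, Cbx7 and Cbx8 of Polycomb repressive complex 1 (PRC1). They are 10 of the 23896 genes counted. Each is represented by its transcript with the highest mean count, and all 10 were among the 12381 genes with enough counts to be tested. The cells were untreated (day 0) or had received 2% DMSO for 2 or 4 days, which sets off hemoglobin production and the exit from division, and poly(A)-selected RNA from 2 biological replicates of each day gave 6 libraries. MEL is a single transformed line, no untreated culture was analysed at days 2 and 4, and time in culture and time in DMSO therefore cannot be told apart.

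As background, PRC2 places methyl groups on lysine 27 of histone H3 through its catalytic subunit, which is either EZH2 or its relative EZH1, and it needs EED and SUZ12 to be active. EZH2 is typically the form of dividing precursors, and EZH1 that of cells that have left the cycle. PRC1 holds a RING ubiquitin ligase that modifies histone H2A, a Polycomb ring finger partner such as BMI1 and, in its canonical form, a CBX protein that reads the mark left by PRC2.

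The libraries held 35294930 to 53899476 counts on transcripts. Levels are given as library-scaled counts (CPM), relative to TMM-scaled library sizes, with the SD over the 2 replicates, and levels of different genes were compared only per kilobase of transcript. The 12 erythroid marker genes summed to between 1112 and 1196 CPM at day 0, 4738 and 5624 CPM at day 2, and 18100.7 and 20278 CPM at day 4, and 11 of them rose by day 4 while Klf1, an erythroid transcription factor, fell. Lymphoid markers were at or near 0, with Cd8a and Ms4a1 at 0 in every library and sums of at most 0.172 CPM. The 7 myeloid markers counted summed to between 11.9 and 24.8 CPM and the 4 mast cell markers to between 0.464 and 2.33 CPM, and both sums were lower on days 2 and 4 than on day 0. Their genes did not all move with the sums. Of 4 myeloid markers tested, 1 rose and 2 fell by day 2, and Lyz2, a lysozyme gene of macrophages and granulocytes, was the 1 that rose (log2 fold change 2.08, edgeR). From day 2 to day 4 Lyz2 fell back (log2 fold change -2.12, edgeR). None of the 4 was called higher between day 0 and day 4, where their log2 fold changes were -0.91 to -0.04. In bulk RNA, fewer cells of a type and less RNA per cell cannot be told apart.

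Between day 0 and day 4, Ezh1, Jarid2 and Cbx7 rose and Ezh2 and Eed fell, while Suz12 rose by day 2 and then fell back. The 5 members that changed between day 0 and day 4 are to be read against the 71.8% of all tested genes that changed (edgeR quasi-likelihood test, Benjamini-Hochberg adjusted p below 0.05, over all transcripts tested). Between day 0 and day 2, 5 of the 10 members were called, 4 higher and 1 lower, against 62.5% of all tested genes. Between day 2 and day 4, 6 members were called, 3 in each direction, against 30.3%. That count was 1 without day 2 replicate 1 and 3 without day 2 replicate 2 or day 4 replicate 2. Over the early step, the late step and the whole course, the median log2 fold change of the members was 0.21, -0.06 and 0.15, and that of all tested genes was 0.0093, -0.0046 and -0.017. Only Ezh1 and Eed changed by at least 1 on the log2 scale between day 0 and a later day, which 23.2% of tested genes did by day 2 and 35.6% by day 4. No member changed by that much between day 2 and day 4, where 5.94% of tested genes did.

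The libraries of days 0 and 2 did not overlap for 6 of the 10 members, those of days 2 and 4 for 9 and those of days 0 and 4 for 8, where such separation held for 80.5%, 74% and 84.8% of tested genes. Ezh1 and Jarid2 were called higher at both steps, as 8.33% of tested genes were, the early step of Jarid2 at an edgeR adjusted p of 0.0495 that passed the threshold in 4 of 14 other fits. No member fell and then rose, a course taken by 1.68% of tested genes.

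**Figure D1:**
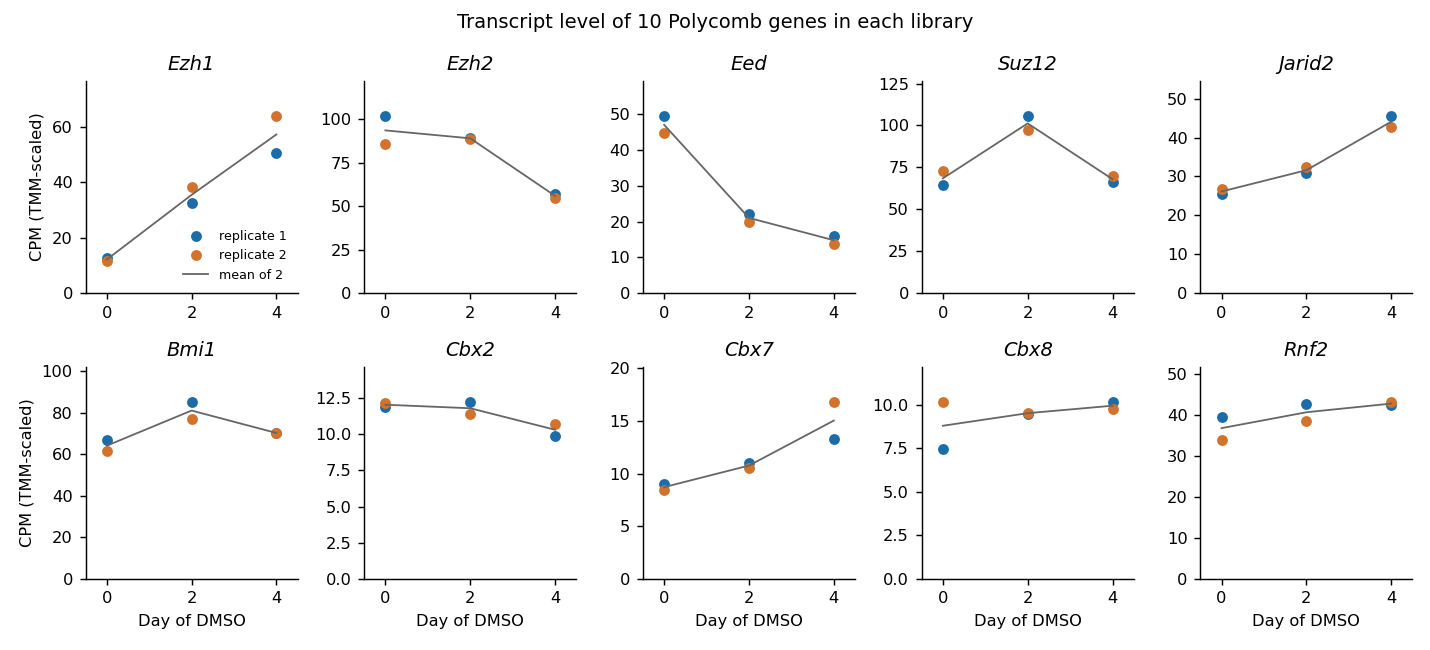
Level of each of the 10 Polycomb transcripts in CPM (TMM-scaled, vertical axis from 0) by day of DMSO, with a point per library and a line through the means of 2 replicates. Ezh1 climbs from about 12.1 to 57.2 CPM, Eed drops from 47.0 to 14.8 CPM, and Suz12 peaks at day 2.

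Letters near the starts of Ezh2, Suz12 and Ezh1 are shown because E2F factors are known regulators of cell-cycle genes, whose levels are set beside Ezh2 further on, and because Ezh1 rose while Ezh2 fell. The RefSeq promoter table of GRCm38.p6 held 9 of the 10 members, each with 250 bases before and 50 bases after a transcription start. Any of the E2F letters TTTCCCGC, TTTGGCGC, TTTCGCGC or TTTGCCGC, on either strand, occurred in 2 of these 9 promoters, those of Ezh2 and Suz12, and in 2.32% of the promoters of 27025 genes. KLF-type letters (CCACACCC, CCACGCCC, CCCCACCC or CCCCGCCC), labelled GC-box letters below, occurred in 7 of the 9 and in 30.01% of all promoters. Of these letters only CCCCGCCC is a GC box in the strict sense, and those shown for Ezh1 are CCACGCCC on the other strand. The CCAAT letters occurred in 6 and in 37.9%, and the GATA letters AGATAA or TGATAA in none and in 19.0%. For Jarid2 these counts use the first start listed. The second start, that of the transcript followed here, had CCAAT letters but no KLF-type letters. The 9 promoters were rich in CpG, with observed to expected ratios of 0.708 to 1.09 beside a median of 0.389 over all promoters. A match is a description of letters in a window and says nothing about a factor being bound there. Any part of these letters in the courses of the genes was not tested. In the sequences below, given 5′ to 3′ on the strand of the gene, the capitals mark the matched letters, which begin 3 bases after the start of Ezh2 (chr6:47595009-47595038, minus strand), 219 bases before that of Suz12 (chr11:79992876-79992905, plus strand) and 10 bases before that of Ezh1 (chr11:101226455-101226484, minus strand).
Ezh2, E2F letters: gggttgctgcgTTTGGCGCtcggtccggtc
Suz12, E2F letters: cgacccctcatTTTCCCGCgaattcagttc
Ezh1, GC-box letters: ggggaggcgcgGGGCGTGGccgcggcgcag

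Ezh1 encodes the catalytic subunit with the weaker methyltransferase activity. Its transcript (NM_007970, GENCODE on GRCm38 chr11:101191116-101226450, minus strand, 21 exons) stood at 12.8 and 11.4 CPM in the day 0 libraries, 32.5 and 38.3 CPM at day 2 and 50.7 and 63.7 CPM at day 4. Every library of a later day lay above every library of an earlier day. In order of days the means were 12.1 ± 0.938, 35.4 ± 4.07 and 57.2 ± 9.21 CPM (SD, n = 2). Ezh1 rose by 1.55 on the log2 scale to day 2 (SE 0.147, edgeR adjusted p = 6.98e-06) and by a further 0.69 to day 4 (SE 0.141, edgeR adjusted p = 0.00456), in all 4.73-fold. The late call of Ezh1 was lost without day 2 replicate 1 (edgeR adjusted p = 0.0919) or day 4 replicate 2 (edgeR adjusted p = 0.0694). It showed the strongest rise of the 10 members in each comparison, and 4.17% of all tested genes rose more between day 0 and day 4.

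Ezh2 encodes the other catalytic subunit, the one with the stronger activity, and took a different course. Its transcript (NM_007971, chr6:47530139-47595030, minus strand, 20 exons) stood at 101.8 and 85.7 CPM at day 0, 89.5 and 88.8 CPM at day 2 and 57.3 and 54.7 CPM at day 4. The day 2 libraries lay between those of day 0, and both day 4 libraries lay below all others. The log2 fold change was -0.07 to day 2 (SE 0.110, edgeR adjusted p = 0.588), -0.67 from day 2 to day 4 (SE 0.111, edgeR adjusted p = 0.00164) and -0.74 from day 0 to day 4 (edgeR adjusted p = 0.000109), a 1.67-fold fall. With library sizes taken as total counts, with no TMM factors, the value to day 2 was 0.12 and was not called either.

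Per kilobase, Ezh1 reached 0.0834 and 0.0888 of the level of Ezh2 at day 0, 0.242 and 0.287 at day 2 and 0.588 and 0.774 at day 4. Ezh2 therefore remained the more abundant of the 2 transcripts in all 6 libraries. On the log2 scale the mean ratio at days 0, 2 and 4 was -3.54 ± 0.06, -1.93 ± 0.17 and -0.57 ± 0.28 (SD, n = 2), a 3.06-fold step to day 2, a 2.56-fold step to day 4 and 7.84-fold in all. The slope was 0.74 log2 units per day, and a two-sided exact permutation test over the 90 arrangements of the libraries gave p = 0.0222, the smallest value these arrangements can give. An exact permutation of 2 libraries against 2 cannot reach a p of 0.05, so the single steps, of 1.61 and 1.36 log2 units, are given without a p beside a pooled SD within days of 0.19.

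To day 2 the called change behind the ratio was that of Ezh1, and from day 2 to day 4 Ezh1 rose and Ezh2 fell. Whether either gene's early step differed from its late step was not tested. Of the joint Ezh1 and Ezh2 level per kilobase, Ezh1 made up 7.93% ± 0.324 at day 0, 20.9% ± 1.99 at day 2 and 40.3% ± 4.68 at day 4 (n = 2). The sum of both moved within a narrower range, at 36.5 ± 4.32, 40.4 ± 0.785 and 33.7 ± 1.53 CPM per kilobase on the 3 days in turn. Its day 0 and day 4 libraries overlapped (33.5 to 39.6 and 32.7 to 34.8). Both day 2 libraries (39.9 and 41.0) lay above all others, so the sum was lower at day 4 than at day 2 without overlap.

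**Figure D2:**
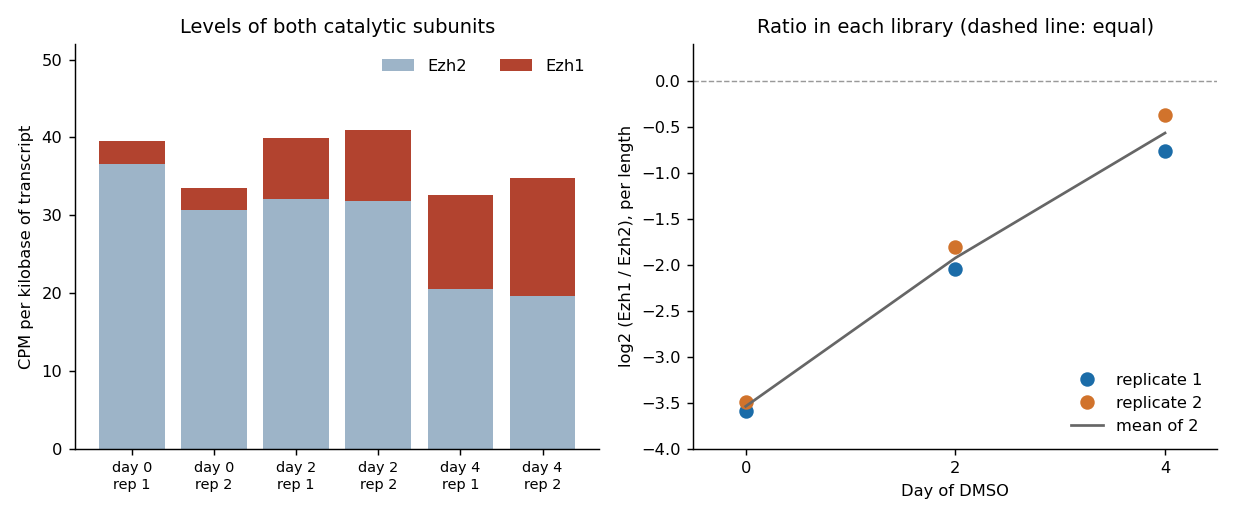
Left, stacked bars of Ezh2 and Ezh1 level in CPM per kilobase of transcript in each of the 6 libraries, from 0. Right, log2 ratio of Ezh1 to Ezh2 per length by day of DMSO, with a point per library, a line through the day means, and a dashed line where both would be equal. The ratio climbs from a mean of -3.54 to -0.57 and stays below the dashed line.

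Of 20 cell-cycle and replication genes set beside Ezh2, 16 fell by day 2, 17 from day 2 to day 4 and 19 from day 0 to day 4 (edgeR), and none rose. The shares of all tested genes called lower were 31.5%, 16.2% and 36.4%. The median log2 fold change of that list between day 0 and day 4 was -1.47 beside -0.74 for Ezh2, and that to day 2 was -0.67 beside -0.07. E2f2, which encodes an E2F factor, was the gene of the list not called between day 0 and day 4. The part of lower division in the course of Ezh2 was not tested.

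Eed encodes the subunit that binds trimethylated lysine 27 and stimulates the catalytic subunit. Its transcript (NM_021876, chr7:89954654-89980983, minus strand, 12 exons) stood at 49.4 and 44.7 CPM at day 0, 22.2 and 19.9 CPM at day 2 and 16.0 and 13.6 CPM at day 4. The 3 days did not overlap. Eed fell by 1.16 on the log2 scale to day 2 (SE 0.129, edgeR adjusted p = 2.08e-05) and by 0.51 to day 4 (SE 0.131, edgeR adjusted p = 0.0140), in all 3.18-fold. The late call of Eed was lost without day 2 replicate 1, day 2 replicate 2 or day 4 replicate 2 (edgeR adjusted p = 0.153, 0.0530 and 0.154). Its exons overlap a transcript on the opposite strand, E230029C05Rik, over 261 bases, and that gene is listed at 0 counts in all 6 libraries. Shorter overlaps with opposite-strand transcripts were annotated for Ezh2 (92 bases), Suz12 (178 bases) and Cbx7 (100 bases), and reads from each strand cannot be told apart if strand was not used in counting. In all, 9.05% of tested genes fell at both steps as Eed did, and 8.51% fell more than Eed between day 0 and day 4.

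Suz12 encodes the scaffold of PRC2. Its transcript (NM_199196, chr11:79993106-80034123, plus strand, 16 exons) stood at 64.3 and 72.6 CPM at day 0, 105.4 and 97.0 CPM at day 2 and 66.1 and 69.8 CPM at day 4. The day 2 libraries lay above the other 4, and those of days 0 and 4 overlapped. Suz12 rose by 0.56 on the log2 scale to day 2 (SE 0.107, edgeR adjusted p = 0.000896) and fell by 0.57 to day 4 (SE 0.108, edgeR adjusted p = 0.00307), which left -0.01 between day 0 and day 4 (SE 0.108, edgeR adjusted p = 0.934). The late call was lost without day 2 replicate 1 (edgeR adjusted p = 0.0633). A called rise followed by a called fall was seen for Suz12 alone of the 10 members and for 2.18% of tested genes.

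Jarid2 encodes an accessory subunit that helps to bring PRC2 to chromatin. Its transcript (NM_001205043, chr13:44731271-44921643, plus strand, 18 exons) stood at 25.4 and 26.8 CPM at day 0, 30.8 and 32.4 CPM at day 2 and 45.4 and 42.7 CPM at day 4, with no overlap between days. The log2 fold change between day 0 and day 4 was 0.75 (SE 0.111, edgeR adjusted p = 9.75e-05), or 1.69-fold. The later step was called, at 0.48 (edgeR adjusted p = 0.00844), and lost its call without day 2 replicate 1, day 2 replicate 2 or day 4 replicate 1 (edgeR adjusted p = 0.117, 0.0630 and 0.0654). The early step of 0.27 was at the threshold (edgeR adjusted p = 0.0495), and its call was lost in 10 of 14 other fits, with an adjusted p of 0.0904 in DESeq2 and 0.0573 with the replicate number as a block.

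By level per kilobase, the order of the 10 members at day 0 was Ezh2 (33.6 CPM per kilobase), Eed (22.8), Bmi1 (17.9), Suz12 (15.6), Rnf2 (11.6), Jarid2 (4.36), Cbx2 (3.17), Cbx7 (3.004), Ezh1 (2.89) and Cbx8 (2.46). Neighbours in this order did not overlap, apart from Cbx7 with Ezh1 and Ezh1 with Cbx8. At day 2 the level of Suz12 was 23.1 and that of Eed 10.2, and at day 4 that of Suz12 was 15.5 and that of Eed 7.15 CPM per kilobase, where Eed overlapped Jarid2. That overlap depends on the Jarid2 transcript used. Its transcripts had mean counts of 1470, 1467 and 1467 but lengths of 5997, 4135 and 5019 bases. The longest was used, and a shorter one would give Jarid2 a higher level per kilobase. Ezh1, which lay among the 3 Cbx genes at day 0, had 13.6 CPM per kilobase at day 4, above Eed and overlapping Suz12 and Rnf2. At that day Ezh2 had 20.1 and Bmi1 19.6 CPM per kilobase, and their libraries met within rounding (lowest of Ezh2 19.6, highest of Bmi1 19.6).

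**Figure D3:**
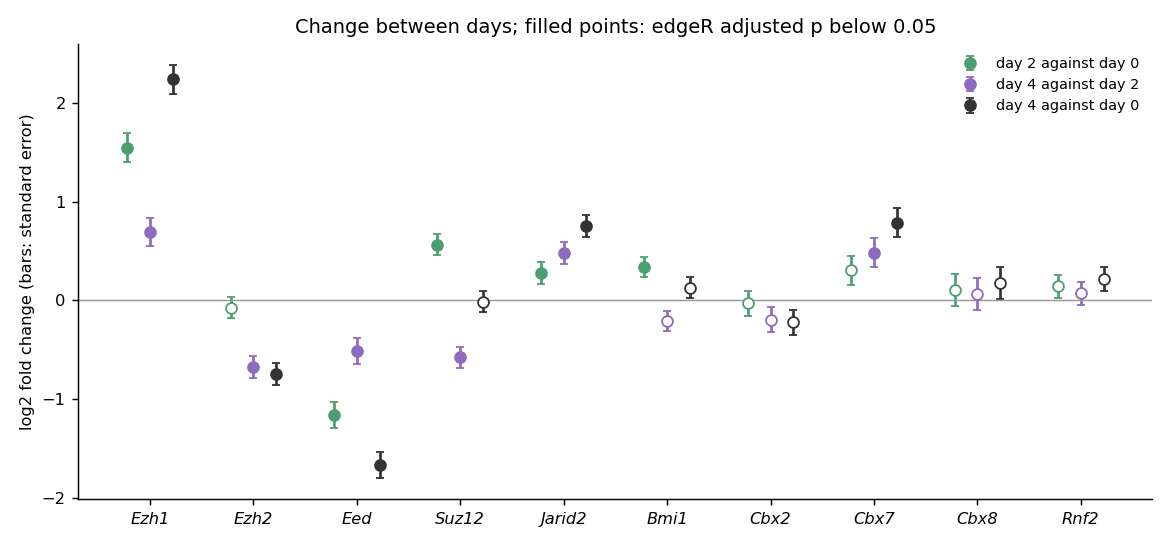
Log2 fold change of the 10 members for day 2 against day 0, day 4 against day 2 and day 4 against day 0, with bars for the standard error. Filled points passed the edgeR test at an adjusted p below 0.05, and the open points of Cbx2, Cbx8 and Rnf2 lie between -0.22 and 0.22 in every comparison.

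Rnf2 encodes RING1B, the principal ubiquitin ligase of PRC1. Its transcript (NM_011277, chr1:151469406-151500955, minus strand, 7 exons) stood at 39.6 and 34.0 CPM at day 0, 42.7 and 38.6 CPM at day 2 and 42.4 and 43.2 CPM at day 4. The day 4 libraries lay above those of day 0, and day 2 overlapped both. The log2 fold change between day 0 and day 4 was 0.22 (SE 0.118, edgeR adjusted p = 0.117). With total counts as library sizes, which move the median log2 fold change of all genes to 0.10 for this comparison, it was 0.33 and was called. The value to day 2 was 0.14 (edgeR adjusted p = 0.304), and with total counts it was 0.34 and called (edgeR adjusted p = 0.0288). On leaving out a library, the value between day 0 and day 4 was 0.10 to 0.33.

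Bmi1 encodes the Polycomb ring finger partner that stimulates RING1B. Its transcript (NM_007552, chr2:18677018-18686629, plus strand, 10 exons) stood at 66.7 and 61.7 CPM at day 0, 85.3 and 77.0 CPM at day 2 and 70.4 and 70.3 CPM at day 4. The day 2 libraries were the highest and those of day 0 the lowest. Bmi1 rose by 0.34 on the log2 scale to day 2 (SE 0.104, edgeR adjusted p = 0.0149), a call that was lost without day 2 replicate 1 (edgeR adjusted p = 0.150). Its values of -0.21 from day 2 to day 4 (edgeR adjusted p = 0.154) and 0.13 from day 0 to day 4 (edgeR adjusted p = 0.273) did not pass the test. The level of Bmi1 is uncertain because 30.4% of the 31-base words of its transcript also occur in Gm5946, a gene annotated in part as a processed pseudogene.

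The CBX proteins are alternative readers of the mark in canonical PRC1, and of the 3 genes followed Cbx7 passed the test. The Cbx7 transcript (NM_144811, chr15:79915807-79932652, minus strand, 7 exons) stood at 8.995 and 8.421 CPM at day 0, 10.99 and 10.52 CPM at day 2 and 13.27 and 16.79 CPM at day 4, with no overlap between days. It rose 1.73-fold between day 0 and day 4, by 0.79 on the log2 scale (SE 0.149, edgeR adjusted p = 0.000582). The step from day 2 to day 4 passed the test at 0.49 (edgeR adjusted p = 0.0290), and that to day 2 did not at 0.31 (edgeR adjusted p = 0.0955). The late call was lost without day 2 replicate 1, day 2 replicate 2 or day 4 replicate 2 (edgeR adjusted p = 0.152, 0.173 and 0.277), the last with a value of 0.30. With total counts as library sizes the calls changed places, the early step being called (edgeR adjusted p = 0.0107) and the late step not (edgeR adjusted p = 0.0569).

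Cbx2 (NM_007623, chr11:119022962-119031270, plus strand, 5 exons) stood at 11.9 and 12.2 CPM at day 0, 12.2 and 11.4 CPM at day 2 and 9.92 and 10.7 CPM at day 4. Cbx8 (NM_013926, chr11:119036305-119040969, minus strand, 5 exons), its neighbour on the chromosome, stood at 7.45 and 10.2 CPM at day 0, 9.51 and 9.54 CPM at day 2 and 10.2 and 9.74 CPM at day 4. The day 4 libraries of Cbx2 lay below all others, whereas the day 0 libraries of Cbx8 spanned both of its day 2 libraries and 1 of its day 4 libraries. Between day 0 and day 4 the log2 fold change was -0.22 for Cbx2 (SE 0.131, edgeR adjusted p = 0.146) and 0.17 for Cbx8 (SE 0.163, edgeR adjusted p = 0.354), and neither passed the test in any of the 3 comparisons. The value of Cbx8 rests on its day 0 libraries, being 0.40 and called without replicate 2 of that day (edgeR adjusted p = 0.0305) and -0.04 without replicate 1.

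Together per kilobase, the balance of the 3 Cbx transcripts moved toward Cbx7, which made up 37.3% and 32.5% of their sum at day 0, 39.2% and 39.1% at day 2 and 45.7% and 51.1% at day 4. The share of Cbx2 was 37.6% and 35.8% at day 0 and 26.0% and 24.8% at day 4, and that of Cbx8 overlapped between these days. All 3 were low beside the PRC1 core, with 2.46 to 3.17 CPM per kilobase at day 0 where Bmi1 had 17.9 and Rnf2 had 11.6. At day 4 Cbx7 had 5.18, Cbx8 2.78 and Cbx2 2.71 CPM per kilobase, of which the last 2 overlapped.

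The other Polycomb genes were drawn from a list of 49, of which 42 were tested. Between day 0 and day 4, 20 of the 42 rose and 10 fell (edgeR), beside 35.5% and 36.4% of all tested genes, with a median log2 fold change of 0.35. At the early step 15 rose and 8 fell, beside 31% and 31.5% of all tested genes, and at the late step 12 rose and 8 fell, beside 14% and 16.2%. The late count of 20 was 11 without day 4 replicate 1 and 4 without either day 2 replicate or without day 4 replicate 2. Of 23 PRC1 genes tested, 12 rose and 3 fell between day 0 and day 4 with a median log2 fold change of 0.51, and of 8 further PRC2 genes 2 rose and 5 fell with a median of -0.42. Over the alternative fits, 11 to 13 of the PRC1 genes rose and 2 to 7 fell, the 7 without day 0 replicate 1, and 2 of the PRC2 genes rose and 4 to 5 fell. Both H3K27 demethylases rose, Kdm6a by 0.75 and Kdm6b by 0.80 on the log2 scale (edgeR adjusted p = 9.29e-05 and 2.44e-05).

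Among the PRC2 genes, Phf19, whose protein binds methylated lysine 36 and guides PRC2 to chromatin, stood at 42.8 and 47.7 CPM at day 0, 18.3 and 19.7 CPM at day 2 and 10.1 and 10.9 CPM at day 4. This was a 4.32-fold fall (log2 fold change -2.11, SE 0.126, edgeR adjusted p = 1.45e-07). Rbbp7, a histone-binding subunit that PRC2 shares with other complexes, fell from 326.8 and 540.0 CPM to 107.1 and 100.8 CPM (log2 fold change -2.06, edgeR adjusted p = 3.61e-06), its day 0 libraries being far apart. Mtf2, a relative of Phf19, fell 2.22-fold, and Lcorl, a gene of the LCOR family of PRC2 accessory proteins, rose 3.28-fold (edgeR adjusted p = 3.42e-06 and 8.37e-07).

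In PRC1, Phc3, a Polyhomeotic subunit of the canonical complex, stood at 30.9 and 30.7 CPM at day 0, 70.5 and 72.7 CPM at day 2 and 103.3 and 114.9 CPM at day 4, a 3.54-fold rise (edgeR adjusted p = 1.21e-07). Ring1, the alternative to Rnf2 as ubiquitin ligase, rose from 17.1 and 13.0 CPM at day 0 to 24.5 and 24.0 CPM at day 2 and 32.2 and 35.3 CPM at day 4 (log2 fold change between day 0 and day 4 of 1.17, SE 0.143, edgeR adjusted p = 2.35e-05). The days did not overlap for either gene. Fbrsl1 and Bcorl1, of variant PRC1, rose by 1.67 and 1.11, and Mbd5, of the complex that removes the H2A mark, rose by 1.34 on the log2 scale (edgeR adjusted p = 4.95e-07, 4.02e-06 and 3.52e-06).

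**Figure D4:**
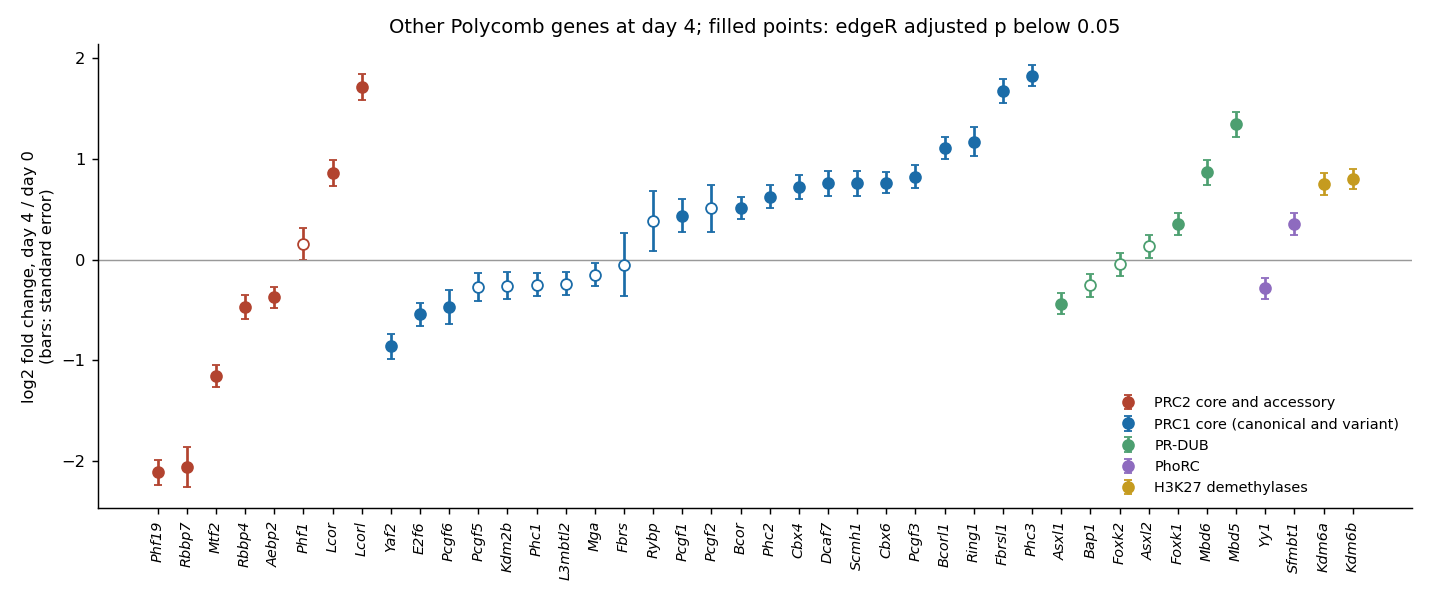
Log2 fold change between day 0 and day 4 of the 42 other Polycomb genes tested, ordered within their complex, with bars for the standard error and filled points for an edgeR adjusted p below 0.05. PRC2 genes reach -2.11 (Phf19) and PRC1 genes reach 1.82 (Phc3).

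Genes that Polycomb complexes are known to silence were mostly at or near 0. Of 60 such targets, 39 Hox genes and 21 others, 28 had no count in any library and 22 were tested. Between day 0 and day 4, 11 rose and 3 fell. Over that comparison 10 of the 16 Hox genes tested were called higher and none lower (edgeR), beside 35.5% and 36.4% of all tested genes. By day 2, 7 were higher and 1 lower, beside 31% and 31.5%. From day 2 to day 4, 4 were higher and none lower, beside 14% and 16.2%. A gene near 0 can pass the count filter through the 1 day where it is high, so 10 of 16 is a description and not a test. With no filter, 23 Hox genes had a value between day 0 and day 4, 10 of them higher and 1 lower (edgeR). Over the alternative fits 9 to 10 rose, and 1 fell without day 0 replicate 1 and with no filter on low counts.

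The Hox genes called and expressed at a mean log2 CPM of at least 1 were 6 neighbours in the HoxC cluster, between Hoxc10 and Hoxc4 (chr15:102966796-103036856). Hoxc8 stood at 1.201 and 1.632 CPM at day 0, 3.64 and 3.52 CPM at day 2 and 5.96 and 7.51 CPM at day 4, and it rose by 2.24 on the log2 scale (SE 0.212, edgeR adjusted p = 3.42e-06). Hoxc5 rose by 1.44 and Hoxc6 by 1.06 (edgeR adjusted p = 4.51e-05 and 0.000128). Hoxc6 stood at 7.08 and 9.59 CPM at day 0, 6.35 and 7.26 CPM at day 2 and 17.8 and 17.2 CPM at day 4, so that its day 4 libraries lay apart and those of days 0 and 2 overlapped. Hoxc9, Hoxc10 and Hoxc4 rose by 0.61, 0.55 and 0.45 (edgeR adjusted p = 0.00176, 0.00880 and 0.0421), and the value of Hoxc10 was 0.35 to 0.77 on leaving out a library, with its call lost without day 4 replicate 1 (edgeR adjusted p = 0.0549). The call of Hoxc4 was lost in 9 of 14 other fits, with an adjusted p of 0.124 in DESeq2. The listed spans of these 6 genes lie close together without overlap, and other annotations of them were not compared. How reads on neighbouring transcripts were assigned is not given in the sources used here.

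Other targets moved both ways. Cdkn2a, which encodes cell-cycle inhibitors, stood at 124.2 and 129.9 CPM at day 0, 64.8 and 69.7 CPM at day 2 and 47.2 and 49.9 CPM at day 4 (log2 fold change between day 0 and day 4 of -1.39, SE 0.102, edgeR adjusted p = 5.78e-07). Its neighbour Cdkn2b, which encodes the inhibitor p15, stood at 1.23 and 1.03 CPM at day 0, 1.22 and 1.89 CPM at day 2 and 4.57 and 4.57 CPM at day 4 (log2 fold change 2.02, SE 0.241, edgeR adjusted p = 1.91e-05). Meis1 and Pax6, developmental transcription factors, fell by 1.54 and 1.05 on the log2 scale (edgeR adjusted p = 4.51e-06 and 0.000137). No measurement of histone marks or protein was used here.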

How the data were processed

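Poly(A)-selected stranded libraries were made from MEL cells at days 0, 2 and 4 of 2% DMSO, with 2 biological replicates per day. The authors trimmed reads with cutadapt and aligned them to mm10 with TopHat, and the values they deposited are raw counts of reads on each RefSeq transcript, not normalized. HTSeq is among the tools in the submitters' processing notes, but its strand and overlap settings and the annotation release are not given in the sources used here. Summary lines were left out of library sizes. Reads on no feature made up 50.5% and 54.1% at day 0, 53.8% and 52.7% at day 2 and 58.1% and 58.4% at day 4. These are shares of transcript counts plus such reads. No library listed an ambiguous read, and transcripts of 1 gene held nearly the same counts (4153 and 4144 for Ezh2 in day 0 replicate 1). A read on shared exons thus appears to be counted on more than 1 transcript. Library sizes would then be too large and the shares on no feature too low. Depth, from 35294930 to 53899476 counts per library, gave each member at least 304 counts in every library.

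Accessions were matched to symbols in a RefSeq table of GRCm38.p6 (32199 of 32654) and in GENCODE (187), and 268 stayed without one. Counts of the 18351 transcripts that passed filterByExpr were fitted with edgeR 4.0.16 (R 4.3.3, TMM factors, glmQLFit and glmQLFTest) in 1 model of the 6 libraries, with each day as a group. Benjamini-Hochberg adjustment ran over these transcripts, with calls made at an adjusted p below 0.05. SE was the log2 fold change divided by the square root of F. Replicates differed most at day 0, with a chi-square per degree of freedom of 58.9 beside 10.5 at day 2 and 16.4 at day 4. This measure also grows with depth. The fit gives no day a spread of its own, so SE and p of comparisons with day 0 can be too small. CPM is relative to TMM-scaled library sizes. The fit was tested on simulated counts.

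The members and gene lists were chosen with earlier results of these data known. All members are named, as are other Polycomb genes called between day 0 and day 4 with a size of 1 or more on the log2 scale, and called targets with a mean log2 CPM of at least 1. Kdm6a, Kdm6b, E2f2 and Lyz2 lie outside this rule and were picked with their values in view. Alternative settings were DESeq2 1.42.0, RLE factors, total counts, globin transcripts removed, no filter beyond 1 count, a fit of 2 days, the replicate number as a block, 1 transcript per gene, summed transcripts, a log2 limit of 1 and leaving out each replicate. Those for Hox genes, targets and other named genes were added after the data were seen.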

Additional observations from a re-analysis of the deposited data

How the results depend on the processing

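Over 14 other fits, 378 of 420 log2 fold changes of the members kept their direction and their side of the threshold, 24 lost a call, 5 gained one and 13 changed sign, none of which had been called; of the 266 values of other named genes, 256 kept both and 10 lost a call. A required size of 1 on the log2 scale left 2, 0 and 2 members and 5, 0 and 9 genes of the wider list for day 2 against day 0, day 4 against day 2 and day 4 against day 0. Leaving out each replicate gave 3 to 5, 1 to 6 and 5 to 6 members, 16 to 27, 4 to 26 and 26 to 35 genes of the wider list, 9 to 10 Hox genes and 13 to 14 targets (11 and 15 with no filter), and the lone sample left on a day is then assumed to vary like the others. For day 4 against day 2, 1 member was called without day 2 replicate 1 and 3 without day 2 replicate 2 or day 4 replicate 2, and the wider list gave 4 without any of these libraries and 11 without day 4 replicate 1. For day 2 against day 0, 3 members were called without day 2 replicate 1. The difference of the log2 ratio of Ezh1 to Ezh2 was 1.49 to 1.74, 1.16 to 1.56 and 2.77 to 3.17, and its slope 0.71 to 0.79 (exact permutation p = 0.0333 to 0.0667; without a day 2 library 0.0667 is the smallest possible).

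With total counts as library sizes, uncalled values changed sign for Ezh2 (0.12) and Cbx2 (0.17) to day 2, Cbx8 (-0.020) and Rnf2 (-0.0097) from day 2 to day 4 and Suz12 (0.10) from day 0 to day 4; this scaling moved the median of all genes to 0.21, -0.09 and 0.10, and the calls over all genes to 5001 higher and 2881 lower by day 2 (3841 and 3902 with TMM), and to 1228 and 2532 from day 2 to day 4 (1739 and 2010). Suz12 from day 0 to day 4 was 0.00056 with 1 transcript per gene. Leaving out each replicate, uncalled values changed sign within the ranges -0.20 to 0.057 for Ezh2, -0.082 to 0.026 for Cbx2 and -0.093 to 0.35 for Cbx8 to day 2, -0.0015 to 0.15 for Rnf2 from day 2 to day 4, and -0.10 to 0.068 for Suz12 and -0.036 to 0.40 for Cbx8 from day 0 to day 4. The cause was not tested.

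Replicate numbers did not pair the libraries (correlations of deviations of 0.032 to 0.079). With the replicate number as a block, 4, 6 and 5 members, 23, 19 and 32 genes of the wider list, 10 Hox genes and 14 targets were called, and the ratio differences were 1.61, 1.36 and 2.97.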

Other observations

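The genes whose log2 CPM followed Ezh1 most closely over the 6 libraries, among 8896 genes with a mean log2 CPM of at least 3, were Wdtc1, Slc25a42, Maf1, Abca2 and Abcg4, with Pearson correlations of 0.9988 to 0.9995. Those closest to Ezh2 were Anln, Ndc1, Nme4, Poc1a and Pole, with correlations of 0.9951 to 0.9966. These are descriptions over 6 points that share libraries and 3 days.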
